A study of Rattus norvegicus with 4 samples.

Results

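The small RNAs described here are the 253 most read sequences (tags) of 16 or 17 nt, the shortest lengths in these libraries. They were chosen by their length, by having no unread base, and by having at least 50 reads in at least 1 of 4 libraries. In all, 48721 tags had this length, 9119 tags of any length reached 50 reads, and the series held 2397853 distinct tags. The members divide into 105 tags of 16 nt and 148 of 17 nt. Each is named by a number that follows its mean level, from m001 (the highest) to m253.

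The libraries were made from vascular smooth muscle cells of the aorta of Sprague-Dawley rats, grown with 10% serum and then kept without serum for 48 h. The 4 groups were untreated control cells and cells treated for 1 h, 3 h or 24 h with Ang II (angiotensin II, the hormone that contracts these cells) at 100 nM, and the design asked how small RNAs in treated cells differed from the control. Each group was 1 library, so no value below has a replicate check and no test of conditions was possible. The 3 comparisons share the 1 control library, which carries no time of its own, and the effects of Ang II and of time in culture therefore cannot be told apart. The labels name no separate animals or passages behind the libraries.

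As background, microRNAs (miRNAs) are cut from a hairpin in steps and guide silencing proteins to target RNAs through the seed, a short stretch near their 5′ end. Ribosomal RNA (rRNA) and transfer RNA (tRNA) are far more abundant in a cell than miRNAs, and their breakdown products are a regular part of small RNA libraries. A tag this short can be a trimmed or broken end of a longer RNA, a piece of a hairpin that is normally discarded, or a by-product of adapters, and is often left out before annotation.

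The libraries held 13119417 to 14534892 reads. All tags of 16 or 17 nt together took 1.03% of the control reads, with an exact 95% binomial interval of 1.03 to 1.04%. At 1 h they took 1.03% (1.03 to 1.04%), at 3 h 1.14% (1.14 to 1.15%) and in the 24 h library 1.28% (1.27 to 1.29%). The control and 1 h shares could not be told apart by counting error, and the 3 h and 24 h shares were above both. The members held 76.8 to 80.96% of these reads. Intervals here and below cover counting error only, and not the spread between libraries of a group. Amplified copies are not independent molecules, so the intervals may also be too narrow for counting error. The label of the cells was checked on miRNAs by their first 18 bases: miR-143-3p and miR-145-5p, both typical of smooth muscle, had at least 3572929 and 31760 reads in every library. The liver miRNA miR-122-5p had at most 3 reads, the blood miRNAs miR-142-3p, miR-451-5p and miR-223-3p at most 7, and the endothelial miR-126a-3p 1326 to 1650; miR-1-3p of striated muscle had 1401 to 1718, miR-133a-3p at most 11 and miR-206-3p at most 38.

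The source of each tag was sought in 4 steps: the adapters, the rat miRNA sequences of RefSeq (724 mature and 419 hairpin sequences, assembly GRCr8), the RefSeq match of a longer tag that holds it, and longer tags known as rRNA or tRNA. The rRNA and tRNA names come from general knowledge of these molecules and not from a reference sequence used here. This gave 64 miRNA tags, 87 rRNA tags, 35 tRNA tags, 2 adapter tags, 2 tags that are the reverse complement of an rRNA tag, and 63 tags with no name. Longer tags, here and below, are those of 18 nt or more. Every member, named or not, was also found inside a longer tag of the same libraries. Of the members, 74 lay most often at its start, 100 in its middle and 79 at its end. Many members overlap and are not independent: 51 pairs differ by 1 base at the 3′ end alone, and the 253 tags begin with 202 different 16-base starts.

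The sequences that carry the results are shown before their values, as read (T for U), 5′ to 3′. The first set shows where the most read member lies: the RefSeq mature sequence with its seed (bases 2 to 8) in capitals, and then the most read longer tag with the member in capitals. The member begins at base 6 of the miRNA and so lacks most of the seed.
miR-143-3p (RefSeq): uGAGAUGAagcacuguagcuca
m001 in its longer tag: tgagaTGAAGCACTGTAGCTCT
m002 in its longer tag: tgagaTGAAGCACTGTAGCTCt

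The second set shows 8 of the 13 tags that were higher at 3 h, in capitals at the start of the longer tag that holds them. Most are the 5′ ends of miRNAs or of 5.8S rRNA, and in the longer tags the base that follows is mostly A in 7 of the 8 (10 of all 13) and G for m208.
m014 (miR-143-3p): TGAGATGAAGCACTGTagct
m022 (miR-146a-5p or miR-146b-5p): TGAGAACTGAATTCCATaggctgg
m038 (let-7a-5p, let-7b-5p or let-7c-5p): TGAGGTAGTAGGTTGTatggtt
m233 (let-7f-5p): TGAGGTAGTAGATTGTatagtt
m237 (miR-10a-5p): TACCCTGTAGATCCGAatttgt
m208 (miR-181b-5p): AACATTCATTGCTGTCGgtgg
m007 (5.8S rRNA): CGACTCTTAGCGGTGGatcactc
m066 (no name): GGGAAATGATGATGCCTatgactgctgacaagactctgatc

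The RefSeq mature sequences of these miRNAs follow, with the seed in capitals. The 4 let-7 sequences share the seed GAGGUAG, and the miR-146 pair shares GAGAACU. The other 2 seeds are each found in 1 of them.
let-7a-5p: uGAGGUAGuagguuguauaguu
let-7b-5p: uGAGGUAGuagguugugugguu
let-7c-5p: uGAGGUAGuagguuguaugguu
let-7f-5p: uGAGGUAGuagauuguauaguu
miR-146a-5p: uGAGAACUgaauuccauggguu
miR-146b-5p: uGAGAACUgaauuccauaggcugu
miR-10a-5p: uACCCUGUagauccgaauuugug
miR-181b-5p: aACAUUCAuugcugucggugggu

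The third set shows tags read almost only at 24 h, in capitals inside the most read longer tag. They come from the interior of rRNAs, and most begin within the longer tag and not at its start.
m037 (5.8S rRNA): cgatgaAGAACGCAGCTAGCTGC
m062 (28S rRNA): CGGACCAGGGGAATCCGac
m088 (18S rRNA): aTGGAATAGGACCGCGGT
m139 (28S rRNA): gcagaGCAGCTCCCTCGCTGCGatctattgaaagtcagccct
m136 (18S rRNA): aaaaataacaatacAGGACTCTTTCGAGGC
m149 (28S rRNA): TCCGGTGAGCTCTCGCtggc
m215 (28S rRNA): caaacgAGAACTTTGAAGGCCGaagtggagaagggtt

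The last set shows the hairpins of 2 tags that lie outside the mature miRNAs, in capitals, from RefSeq. In Mir29b1 (GRCr8 chr4:60618334-60618414, minus strand) the tag spans bases 34 to 50 of 81, from the last 3 bases of miR-29b-1-5p through the loop to the base before miR-29b-3p. In Mir21 (GRCr8 chr10:71902600-71902691, minus strand) it spans bases 1 to 17 of 92 and stops just before miR-21-5p.
m142 in Mir29b1: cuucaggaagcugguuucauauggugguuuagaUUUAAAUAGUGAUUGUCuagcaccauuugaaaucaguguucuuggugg
m092 in Mir21: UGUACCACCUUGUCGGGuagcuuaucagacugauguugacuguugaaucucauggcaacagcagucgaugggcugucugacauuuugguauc

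To count members that differed from the control, levels were scaled to the reads of each library (RPM, parts in 1000000). A tag was called where RPM + 1 differed from that of the control by more than 2-fold and 1 of the 2 libraries compared had 50 reads or more. At 1 h, 2 of 182 members tested were higher and 8 were lower, against 1.78% higher and 5.05% lower among all 7827 tags tested by the same rule. At 3 h, 13 of 198 members (6.57%) were higher and 14 (7.07%) lower, against 2.18% and 11.2% of 8021 tags. At 24 h, 40 of 235 members (17.0%) were higher and 13 (5.53%) lower, against 8.92% and 9.81% of 8541 tags. Against the 1 h library, 9 of 168 members were higher and 1 lower at 3 h (2.9% and 6.65% of all tags tested), and 50 of 216 were higher and 4 lower at 24 h (11.7% and 6.45%). Against the control, the share of members that were higher thus lay below that of all tags at 1 h and above it at 3 h and 24 h, and the lower shares lay below that of all tags at each time. The median log2 difference of members tested was -0.17 at 1 h, -0.10 at 3 h and 0.20 at 24 h, beside -0.18, -0.20 and -0.20 for all tags. A member that reached 50 reads in 1 library alone had to be high there: 52 members reached it at 24 h alone, and 38 of the 40 calls at 24 h are among them, while 13 reached it at 3 h alone, with 5 of the 13 calls. With TMM factors (a scaling that sets the bulk of tags equal), the log2 differences of the members moved by a median of 0.15 (1 h), 0.18 (3 h) and 0.18 (24 h). Among the 115 members with 50 reads in every library, 5 were higher at 3 h against 0.871% of 4938 such tags, and 1 was higher at 24 h against 2.05%.

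**Figure D1:**
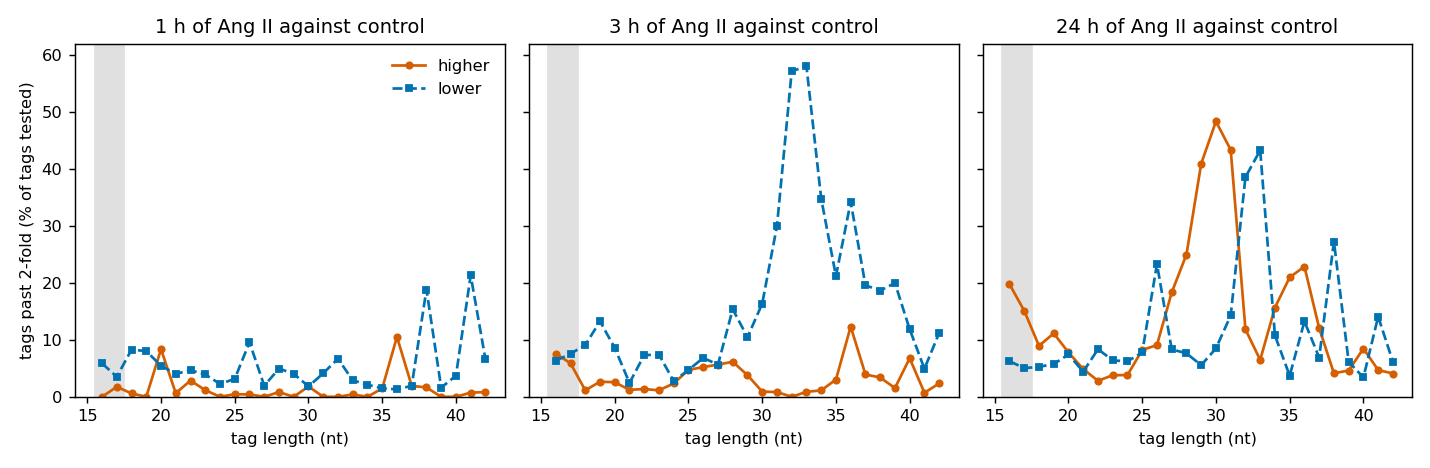
Share of tags past 2-fold against the control (vertical axis, % of tags tested) by tag length in nt (horizontal axis) at 1 h, 3 h and 24 h of Ang II, 1 library each, circles for higher and squares for lower. Shading marks 16 and 17 nt, where 19.8% and 15.1% of tags were higher at 24 h, beside 8.95% at 18 nt, with larger shares again near 30 nt.

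The share of higher tags at 24 h differed by length. Of tags tested, 19.8% of those of 16 nt and 15.1% of those of 17 nt were higher at 24 h, then 8.95% at 18 nt and 11.2% at 19 nt. The largest share at any length was 48.4%, at 30 nt. Tags with at least 90% of the sum of their 4 RPM values at 24 h, and 50 reads there, made up 7.73% of the members (16 of 207) beside 0.851% of all 6937 tags with 50 reads at 24 h. All 16 had fewer than 50 reads in every other library, so the 24 h counts that mark them also chose them as members. Some of them overlap, and they numbered 11 when tags with the same first 16 bases were merged. By the same rule no member stood almost alone in the control (0 of 172, against 0.0943% of all tags), at 1 h (0 of 132, against 0.0162%) or at 3 h (0 of 160, against 0.188%). The only library in which members were read almost alone was thus the 24 h library.

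miRNA tags held most of the reads. They summed to 5530, 6201, 6689 and 7555 RPM in the control, 1 h, 3 h and 24 h libraries, and 41 of the 64 tags came from miR-143-3p, a miRNA of contractile smooth muscle. The miR-143-3p tags alone summed to 5367, 6045, 6402 and 7405 RPM, which at 24 h was 1.38 times the control (exact 95% interval 1.37 to 1.39). Scaled to the reads of 16 and 17 nt alone, this ratio was 1.11, so it stayed above 1 while its size moved with the scale. Longer tags that hold the most read member were 1.25 times the control at 24 h.

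**Figure D2:**
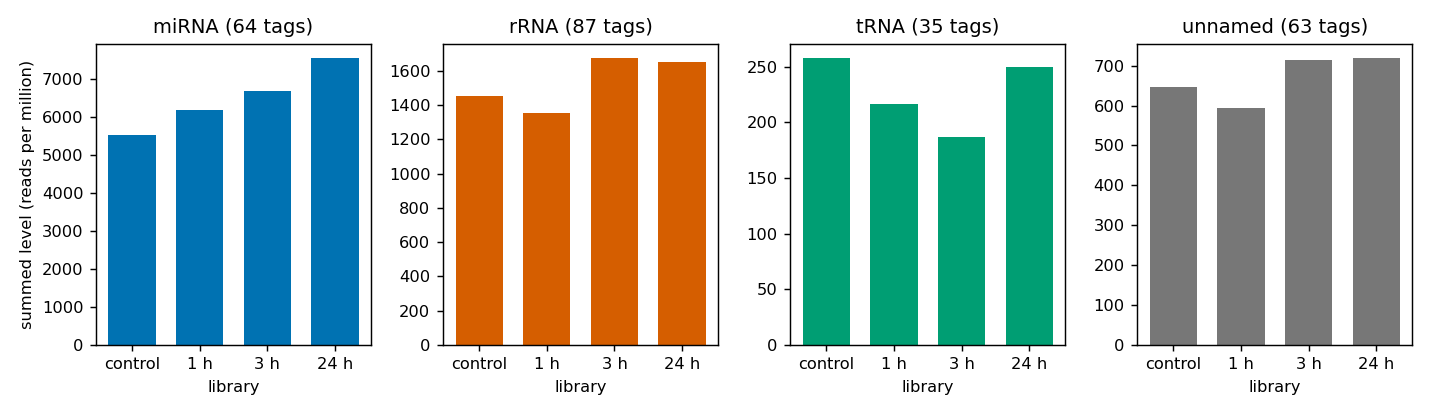
Summed level of the members of each source (bars, RPM, each panel with its own axis from 0) in the 4 libraries, 1 library per bar. The miRNA sum was highest at 24 h (7555), the rRNA sum at 3 h (1673), and the tRNA sum was lowest at 3 h (187).

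Nearly all of the miR-143-3p reads were 3′ parts of the miRNA. The 23 tags that begin at base 6 summed to 4233, 4970, 5112 and 5902 RPM in the control, 1 h, 3 h and 24 h libraries, while the 2 that begin at base 1 summed to 47.3, 55.5, 101.6 and 65.6 RPM. m001, of 17 nt, had 35822, 38239, 43103 and 47430 reads in the control, 1 h, 3 h and 24 h libraries. m002, which is the same tag without its last base, had 21126, 22603, 25801 and 32734 reads. Both were lowest in the control and highest at 24 h, at 1.31 times (1.29 to 1.33) and 1.53 times (1.51 to 1.56) the control, short of the 2-fold limit. m001 was the main form of its start and made up 89.9 to 91.02% of all reads that begin with its 17 bases. m002 was not, since m001 begins with the bases of m002 and had more reads in every library. In every library, 102 of the 253 members had more reads than the tags of 18 nt or more with their start. For members of 16 nt, that count leaves out the forms of 17 nt.

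The last base of m001 is not that of the RefSeq sequence, and its source was told through a longer tag with the same end, which had 4195842 reads over the 4 libraries. m008, which carries the RefSeq ending, had 1891, 1923, 2117 and 2591 reads, so m001 exceeded it in every library. m004 (base 7) had 5769, 5186, 6204 and 8315 reads, m005 (base 5) had 4192, 3429, 4348 and 5400, and m006 (base 4) had 3548, 3012, 4187 and 4450. These 3 were highest at 24 h, within 2-fold. At 1 h they were 0.986 (0.9499 to 1.024), 0.898 and 0.932 times the control, and 1.12, 1.02 and 1.06 times with TMM factors, so the direction at 1 h depends on the scale.

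Of all members, 49 were 1 substitution away from a more read member, at a median of 1.09% of that member. The 14 near copies of m001 had a median of 0.294% of its reads. m029, the most read of the tags matched through a longer tag with 1 substitution, had 236, 342, 356 and 445 reads. The 3 miRNA tags higher at 24 h were of this kind: m119 (43, 67, 65 and 129 reads), m230 (20, 28, 16 and 58) and m238 (17, 13, 8 and 61), each highest at 24 h. Scaled to reads of 16 and 17 nt, m230 was within 2-fold (1.79 in RPM + 1). The part of misread bases of the abundant tag in these values was not tested.

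The 13 miRNA tags that begin at base 1, and so hold the whole seed, had their highest sum at 3 h. They summed to 109.8, 113, 280 and 132 RPM in the control, 1 h, 3 h and 24 h libraries, and 6 of the 13 were higher at 3 h by the size rule, beside 0 of the 46 that begin further in. The choice of members bears on this contrast: 4 of the 13 (3 of them higher) reached 50 reads at 3 h alone, beside 1 of the 46, and 3 of the other 9 were higher, beside 0 of the other 45. The median log2 difference from the control at 3 h was 0.70 for the 13, beside 0.12 for the 46. The sources also differed: 39 of the 46 were tags of miR-143-3p, many of them overlapping, beside 2 of the 13. Outside miR-143-3p, 5 of 11 were higher at 3 h, beside 0 of 7. Not each of the 13 was highest at 3 h. m056 of miR-99b-5p was highest in the control (12.5 RPM, beside 9.53 at 3 h). m145 of let-7a-5p or let-7c-5p was highest at 1 h (4.50 RPM, beside 3.76 at 3 h).

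Of these 5′ ends, the most read that were higher at 3 h were m022 and m038. m022, the start of miR-146a-5p and miR-146b-5p, miRNAs induced in inflammation, had 189, 164, 1123 and 372 reads in the control, 1 h, 3 h and 24 h libraries. At 3 h it was 5.95 times the control (5.10 to 6.98). m038, the start of let-7a-5p, let-7b-5p and let-7c-5p, which restrain cell division, had 132, 80, 708 and 73 reads and was 5.37 times the control at 3 h (4.46 to 6.52). For both, the 3 h library stood alone, far above the other 3.

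The next tags were read less deeply. m233, the start of let-7f-5p, had 12, 12, 81 and 11 reads and was 6.76 times the control at 3 h (3.67 to 13.6). m237, the start of miR-10a-5p, had 15, 16, 64 and 13 reads, which is 4.27 times (2.41 to 8.08). m208, the start of miR-181b-5p, had 29, 18, 85 and 19 reads, which is 2.94 times (1.91 to 4.64). Again the 3 h value was the highest of the 4 for each tag, and the other 3 libraries lay close together. m014, the start of miR-143-3p, had 383, 407, 1113 and 571 reads and was 2.91 times the control at 3 h (2.59 to 3.28).

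**Figure D3:**
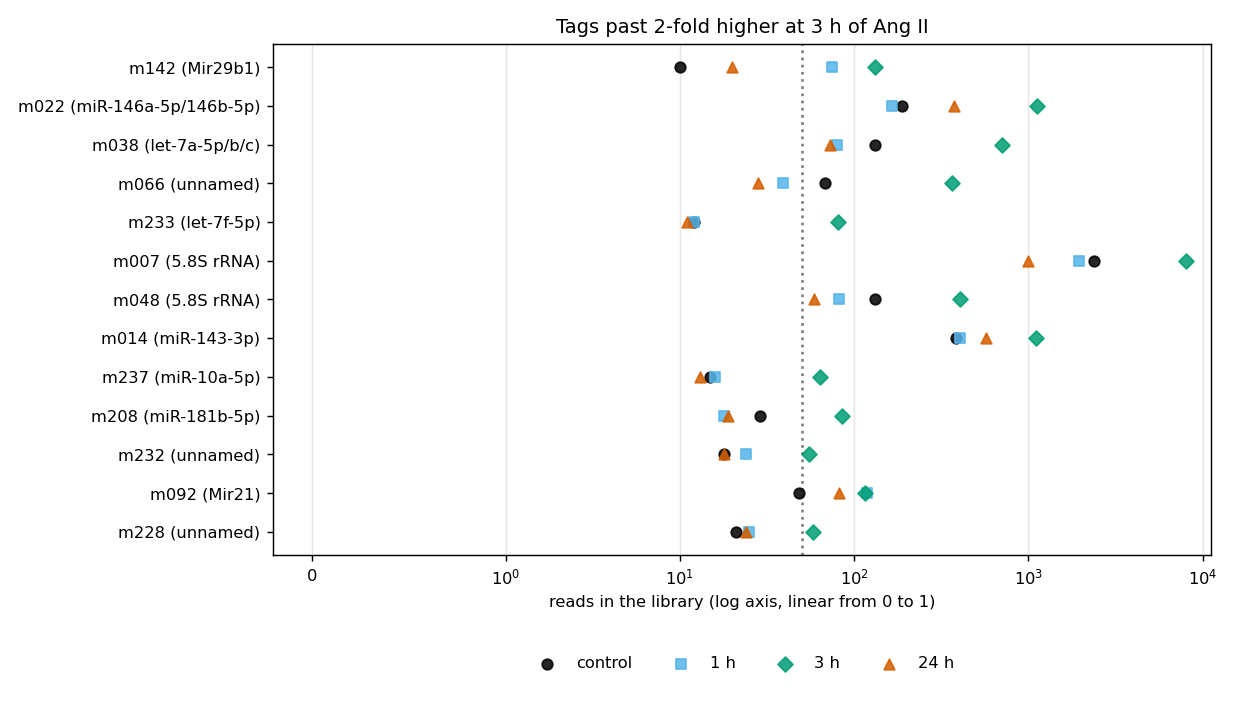
Reads of the 13 tags past 2-fold higher at 3 h (rows, with their source) in the 4 libraries (horizontal axis, log above 1 and linear from 0 to 1; dotted line at 50 reads). The diamond for 3 h lies to the right of the other libraries in every row but m092, where 1 h and 3 h are alike (118 and 116 reads).

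Longer tags with the same start did not share this shape. Over the 11 tags that were higher at 3 h and at no other time, the median ratio to the control was 3.38, beside 0.82 for the longer tags that begin with the same bases. The 11 were chosen by their own ratio at 3 h and the longer tags were not, which bears on this gap. m022 made up 0.573, 0.493, 2.90 and 0.778% of the reads with its start in the 4 libraries by time, and m038 made up 0.00695%, 0.00516%, 0.0438% and 0.00490%. The short form was a small part of each miRNA in every library, and a larger part at 3 h.

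In longer tags, the base that follows the member was mostly A for 9 of these 11, beside 75 of all 252 members with a longer tag that runs on past their end. The 3′ adapter of these libraries also begins with A, per the labels. Of the tags higher at 3 h for which 6 following bases could be read, 5 of 11 matched the first 6 bases of the adapter at 3 or more positions, beside 36 of 183 members tested at 3 h and not higher there. The sources used here do not say how reads were trimmed, and the part of trimming in the 3 h values was not tested.

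Hairpin parts outside the mature miRNAs gave the only 2 members that were higher at 1 h. m142, the loop side of Mir29b1, had 10, 75, 131 and 20 reads in the control, 1 h, 3 h and 24 h libraries. It was 8.23 times the control at 1 h (4.24 to 17.9) and 13.1 times at 3 h (6.91 to 28.01), and 1.98 times at 24 h (0.885 to 4.74), where it had too few reads to be called. miR-29b, the mature product, targets collagen and other matrix RNAs, and reads with the first 18 bases of miR-29b-3p were 120.4, 157.5, 192.3 and 193.3 RPM. The loop tag was thus lower at 24 h than at 1 h and 3 h, while the mature reads were about as high at 24 h as at 3 h.

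m092, the 5′ flank of Mir21, had 48, 118, 116 and 82 reads. It was 2.70 times the control at 1 h (1.91 to 3.86) and 2.42 times at 3 h (1.72 to 3.46; 1.93-fold in RPM + 1 when scaled to reads of 16 and 17 nt, short of the limit), and within 2-fold at 24 h (1.69, 1.17 to 2.47). miR-21 is a miRNA of growing and stressed cells. Reads that begin with the first 18 bases of miR-21-5p were 1.03 (1 h), 1.18 (3 h) and 1.25 (24 h) times the control, and those of miR-21-3p, from the other arm, were 2.53, 2.53 and 1.83 times. The flank and the 3′ arm both had their highest ratio at 1 h and 3 h.

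Other hairpin and miRNA tags differed less or went the other way. m174 begins at the last base of miR-148a-5p, base 23, in a longer tag with 2 reads. It had 72, 36, 57 and 27 reads, 0.371 times the control at 24 h, which was within 2-fold with TMM factors (1.86 times lower in RPM + 1). m214 lies after miR-181b-5p in a longer tag with 2 reads, and had 69, 25, 21 and 31 reads, 0.305 times the control at 3 h. m154, from Mir10b, begins 2 bases before the RefSeq mature sequence and had 49, 36, 63 and 65 reads, within 2-fold at each time. It spans bases 26 to 41 of the hairpin, and miR-10b-5p spans bases 28 to 49, so most of m154 is mature sequence and it holds the seed. The most read longer tag that holds m154, with 246213 reads, has the same start. m154 was not counted among the 13 tags that begin at base 1. m013, from base 6 of miR-16-5p, was the most read miRNA tag from outside miR-143-3p, with 785, 630, 713 and 539 reads.

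rRNA tags were most of the members called higher at 24 h, while the largest sums of reads were those of miRNA tags. The 87 rRNA tags were pieces of 28S rRNA (43 tags), 5.8S rRNA (19), 5S rRNA (13) and 18S rRNA (12), the RNAs of the ribosome's large and small subunits. Of the 40 members higher at 24 h, 33 were rRNA, 4 had no name and 3 were miRNA. These 33 rRNA tags, chosen by being higher there, summed to 34.7, 30.1, 32.1 and 434 RPM in the control, 1 h, 3 h and 24 h libraries. The other 54 summed to 1419, 1323, 1641 and 1218 RPM. The rRNA sum as a whole was 1454, 1353, 1673 and 1653 RPM, 1.14 times the control at 24 h and 0.915 times when scaled to reads of 16 and 17 nt, so its direction depends on the scale.

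The tags read almost only at 24 h were 15 rRNA tags (8 from 28S, 5 from 18S and 2 from 5.8S rRNA) and 1 with no name. Together they had 53, 54, 75 and 3988 reads in the control, 1 h, 3 h and 24 h libraries. The most read was m037 of 5.8S rRNA, with 18, 13, 21 and 1000 reads, 55.02 times the control (34.6 to 93.2). m062 of 28S rRNA had 0, 1, 1 and 531 reads, at least 175-fold higher than the control when its 0 reads are set to 3. Each was low in 3 libraries and high in 1.

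An overlapping pair from 18S rRNA had the next counts. m088 had 0, 3, 13 and 393 reads, at least 130-fold higher than the control on the same floor of 3 reads. m111, the same tag without its last base, had 1, 0, 2 and 327 reads, a ratio of 324 with an interval of 57.7 to 12831 because the control had 1 read. m105, which begins 1 base earlier, had 13, 6, 18 and 317 reads and fell just short of the 90% limit, at 89.3%. The 3 share their bases and count as 1 site.

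Further sites lay in 28S and 18S rRNA. m139 of 28S rRNA had 3, 1, 6 and 248 reads, a ratio to the control of 81.9 (27.7 to 400). m136 of 18S rRNA had 7, 10, 5 and 240 reads (33.96, 16.2 to 85.4). m149 of 28S rRNA had 7, 5, 7 and 203 reads (28.7, 13.7 to 72.3). In all 3 the control, 1 h and 3 h counts were at most 10.

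m169 of 28S rRNA, which overlaps m062, had 1, 2, 2 and 195 reads (193, 34.3 to 7667). m215 of 28S rRNA had 1, 4, 2 and 140 reads (139, 24.5 to 5515). m218 of 18S rRNA had 3, 4, 1 and 136 reads (44.9, 15.0 to 220). m224, a shorter form of m062, had 3, 5, 2 and 126 reads. These 4 tags had at most 5 reads in each of the other 3 libraries, and their wide intervals come from the 1 to 3 control reads.

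**Figure D4:**
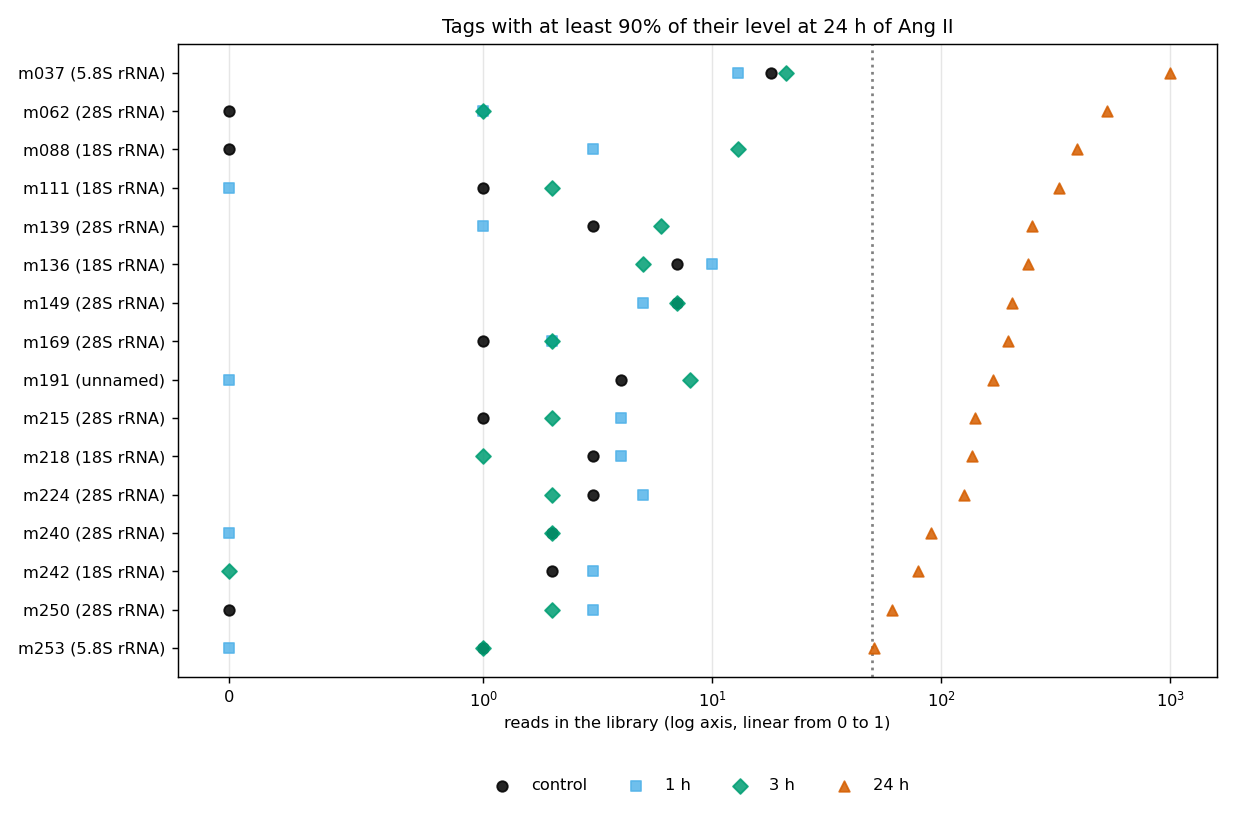
Reads of the 16 tags with at least 90% of the sum of their 4 RPM values at 24 h (rows, with their source) in the 4 libraries (horizontal axis, log above 1 and linear from 0 to 1; dotted line at 50 reads). The triangles for 24 h run from 51 to 1000 reads, and every other point is at 21 reads or fewer.

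Longer tags of the same stretches were more than 2-fold above the control at 24 h for 19 of the 33. The same held for 34 of all 253 members and for 3 of the other 54 rRNA tags. For the 33 rRNA tags, the median ratio to the control at 24 h was 17.6, beside 5.45 for longer tags with the same start and 2.67 for all longer tags that hold them. For all members these medians were 1.13, 0.99 and 1.05. The 33 were chosen by their own ratio at 24 h, and the longer tags and all members were not, which bears on these gaps. Some sites departed from the medians of the 33: longer tags that start like m139 were 1.11 times the control at 24 h and those that start like m062 were 84.5 times. As a share of reads with its start, m139 was 1.36, 0.442, 3.16 and 50.4% in the 4 libraries, whereas m149 was 16.3, 17.9, 28 and 21.7%. The m149 shares leave out its form of 17 nt. The short form was thus a larger share of its start at m139 and not at m149.

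The 40 members higher at 24 h lay mostly inside longer tags (27 of 40), beside 100 of all 253. Their median GC content was 60.7%, beside 50% for all members. The base after the tag was mostly C in 12, T in 11, A in 9 and G in 8 of the 40. Their last base was C in 18 and G in 14 of the 40, beside C in 76 and G in 59 of all 253. Since 33 of the 40 were rRNA, the other 54 rRNA tags are the closer comparison. Median GC content was 62.5% for the 33 and 56.25% for the 54. Inside longer tags lay 24 of the 33 and 25 of the 54. The last base was C in 16 and G in 12 of the 33, beside C in 17 and G in 11 of the 54.

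**Figure D5:**
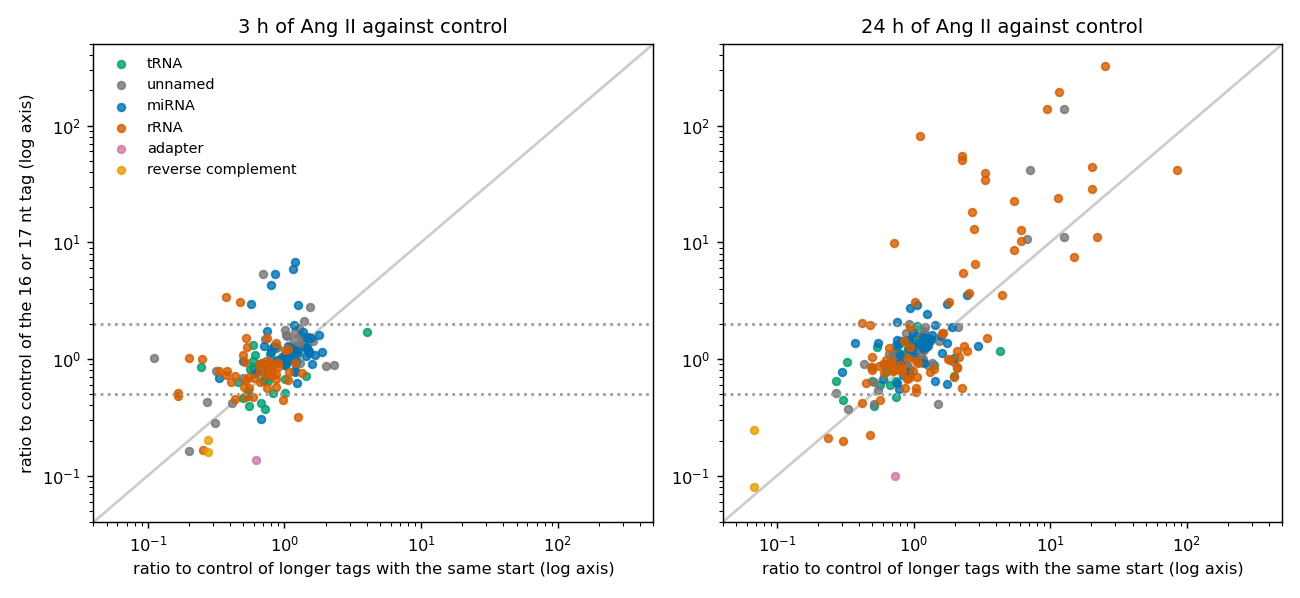
Ratio to the control of each 16 or 17 nt tag (vertical axis, log) against that of longer tags with the same start (horizontal axis, log) at 3 h and 24 h, for the 181 of 198 and 215 of 235 tags tested that have both ratios above 0, colored by source; dotted lines mark 2-fold and the grey line equality. At 3 h the high miRNA tags lie above longer tags near 1, and at 24 h the high rRNA tags lie above the line with most of their longer tags also above 1.

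At the 5′ end of 28S rRNA the main tag did not differ. m003, of 17 nt, had 8906, 8838, 8278 and 9017 reads and was 1.00 times the control at 24 h (0.974 to 1.03). m032, 1 base shorter, had 220, 177, 188 and 677 reads and was 3.05 times the control. Longer tags with the start of m003 were 1.80 times the control at 24 h, so its share of that start was 19.8, 18.98, 20.5 and 12.1% in the 4 libraries. m078, further inside 28S rRNA, had 150, 41, 25 and 216 reads, lower at 1 h and 3 h (0.2999 and 0.167 times) and 1.43 times the control at 24 h.

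The 5′ end of 5.8S rRNA held tags with opposite differences. m007 had 2384, 1954, 8034 and 1001 reads in the control, 1 h, 3 h and 24 h libraries, which is 3.38 times the control at 3 h (3.22 to 3.54) and 0.416 times at 24 h (0.386 to 0.448). m048, which begins 1 base earlier, had 132, 82, 404 and 59 reads, with the same order of libraries. Longer tags with the start of m007 were 0.375 times the control at 3 h and 0.419 times at 24 h, so the tag made up 1.18, 1.22, 9.70 and 1.17% of the reads with its start. The short form was thus high at 3 h while the longer forms were low.

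Its neighbours did not follow it. m015, shifted by 1 base, had 986, 636, 444 and 224 reads, with its lowest value, 0.225 times the control (0.194 to 0.260), at 24 h. With TMM factors m015 at 3 h and m048 at 24 h were within 2-fold (1.88 and 1.75 times lower in RPM + 1). m058, which is m007 with 1 more base, had 124, 91, 90 and 257 reads. m102 and m231, which begin upstream of it, had 144, 64, 113 and 29 reads and 52, 23, 33 and 11 reads. m009, at the 3′ end of the same RNA, had 1865, 1691, 1477 and 1600 reads, within 2-fold throughout.

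5S rRNA tags were lower at 1 h as a group. The 13 tags summed to 85.1, 42.9, 56.02 and 98.1 RPM, 0.504 times the control at 1 h, and 0.574 times with the TMM factors described under processing. Of these, 2 passed the limit at 1 h, beside 5.05% of all tags tested: m087, with 142, 51, 97 and 115 reads, and m193, with 61, 21, 34 and 60. With TMM factors neither passed it, at 1.98 and 1.82 times lower in RPM + 1. The 24 h sum was 1.15 times the control, or 0.928 times when scaled to reads of 16 and 17 nt, so its direction depends on the scale.

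tRNA tags were lower in sum at 3 h. The 35 tags summed to 258, 217, 187 and 250 RPM, 0.725 times the control at 3 h (0.689 to 0.762), which was below 1 under each scaling tried. At 24 h the sum was 0.969 times the control and 1.14 times with TMM factors. None of the 35 was higher at any time, beside 1.78% (1 h), 2.18% (3 h) and 8.92% (24 h) of all tags tested. At 3 h 2 were lower (m033 and m131) and at 24 h 1 (m033), beside 11.2% and 9.81% of all tags tested. With TMM factors both 3 h differences were within 2-fold, at 1.73 and 1.91 times lower in RPM + 1. m033 of tRNA-Glu had 466, 354, 225 and 185 reads, 0.484 times the control at 3 h (0.411 to 0.568) and 0.393 times at 24 h (0.330 to 0.467). At 24 h, longer tags with the start of m033 were 0.510 times the control, and all longer tags that hold it were 2.17 times.

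The tRNA tags also differed among amino acids. tRNA-Glu tags (3) summed to 44.04, 36.4, 24.2 and 20.3 RPM and were below the control at each time under each scaling tried. tRNA-Gly tags (7) summed to 63.4, 52.1, 51.2 and 87.9 RPM, 1.39 times the control at 24 h and at least 1.12 times under each scaling. m035, the most read of them, had 292, 263, 242 and 435 reads. m131 of tRNA-Asn had 88, 40, 33 and 104 reads and was 0.376 times the control at 3 h. tRNA-Lys tags (5) summed to 32.3, 27.5, 20.0 and 22.6 RPM.

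The 63 tags with no name summed to 646, 594, 714 and 719 RPM, and the direction of their sum depended on the scale at each time. Of these, 12 share the 13 bases AATTTCGGTTGGG and summed to 323, 291, 367 and 392 RPM, none past 2-fold. The most read, m010, had 984, 736, 1028 and 1071 reads. Several end in a run of A of different lengths, as in this longer tag with m040 in capitals.
m040 in its longer tag: AATTTCGGTTGGGAAAaaaaa

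Another 22 unnamed tags hold CTGA, the letters of the D box of C/D small nucleolar RNAs, which guide the chemical marking of rRNA. This is 34.9% of the 63, beside 5.26% of the 190 other members and 12.8% of all 48721 tags of 16 or 17 nt, and all 22 have it within 5 bases of their 3′ end. The reverse complement was in 0 of the 63, 8.42% of the other members and 7.04% of all tags. TGATGA, the letters of the C box, was in 5 of the 63, 0 of the other members and 1.14% of all tags, and its reverse complement in 0 of the 253. These are matches of letters and not assigned sources. The 25 tags with either motif summed to 162, 160, 180 and 142 RPM. Of them, 1 was higher at 3 h and 1 lower at 24 h, beside 2.18% and 9.81% of all tags tested.

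m066, which holds TGATGA, was the unnamed tag with the largest difference at 3 h. It had 68, 39, 364 and 28 reads, 5.36 times the control at 3 h (4.13 to 7.05), while longer tags with its start were 0.697 times. m232 had 18, 24, 55 and 18 reads and m228 had 21, 25, 58 and 24, both highest at 3 h, though m228 was within 2-fold (1.92 in RPM + 1) when scaled to reads of 16 and 17 nt and at 1.99 when scaled to reads of 18 to 25 nt. At 24 h, m191 had 4, 0, 8 and 168 reads, 41.6 times the control (15.9 to 154). m207 had 1, 1, 14 and 140 reads, and 2 tags that share 15 bases with it, m241 and m249, were also higher at 24 h.

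A GC-rich site was lower at 3 h. m057, m085 and m096 share 15 bases, all G or C, and together had 35.7, 21.4, 10.2 and 26.9 RPM. m057 had 210, 120, 59 and 177 reads, m085 180, 94, 35 and 95, and m096 124, 67, 52 and 119. m129, another GC-rich tag, had 148, 45, 24 and 62 reads and was lower at all 3 times. With TMM factors m129 at 24 h (1.86 times lower in RPM + 1) and m096 at 3 h (1.83) were within 2-fold. All 4 tags were lowest at 3 h.

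Of the 5 members lower at all 3 times, 1 was m129 and the other 4 were adapter or reverse-complement tags. m189, a piece of the 3′ adapter, had 140, 6, 19 and 14 reads. The most read longer tag that holds m189 was highest at 3 h, with 489, 221, 1580 and 349 reads. All longer tags that hold m189 together had 34832, 24367, 23439 and 27024. m251, close to the 5′ adapter, had 52, 7, 3 and 1. m226 and m229, the reverse complement of the 5′ end of 5.8S rRNA, had 100, 9, 16 and 8 reads and 69, 24, 14 and 17 reads. The control held the most reads of all 4 members, and m229 at 1 h was within 2-fold with TMM factors (1.85 times lower in RPM + 1). The control file also had 50636 reads in tags with an unread base, beside 17869 to 22564 in the other files, and the part of library quality in these values was not tested.

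The limit of 50 reads cuts through a continuous range. Just inside it, m203 of tRNA-Lys had 38, 50, 27 and 39 reads, and m205 of miR-143-3p had 36, 34, 33 and 50. Just outside, 2 tags with 49 reads as their highest count had 24, 25, 29 and 49 reads and 3, 0, 4 and 49 reads. Of all tags of these lengths, 8 had a highest count of 50 and 5 a highest count of 49.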

How the data were processed

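Small RNA was sequenced from rat aortic smooth muscle cells in 4 libraries, 1 per group. The deposited tables, 1 per library, give raw read counts per distinct sequence (tag), with no normalization. Novoalign and the rat build rn4 are named in the submitters' processing notes with no role; trimming and filters are not given in the sources used here. Per the labels' protocols, RNA of 17 to 52 nt was cut from the gel, so tags of 16 nt lie below the stated range. An unnamed row (a QC row) held 5.13 to 7.07% of each table's counts and was left out, as were tags with an unread base.

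The members and lists were chosen with earlier results of these data known. Members are tags of 16 or 17 nt with at least 50 reads in 1 library, so the counts described also chose them. RPM is reads per 1000000 of the library total. A tag was called higher or lower past 2-fold in RPM + 1, given 50 reads or more in 1 of the 2 libraries, and as almost only in 1 library at 90% of the 4 RPM values with 50 reads there. Named tags are the 10 with the highest mean, the 10 largest differences in each direction and time, the 10 most read at 24 h among those almost only there, 2 on each side of the 50-read limit, and the most read of each source; others named were chosen after their values were seen. Ratios have exact 95% conditional binomial intervals, and a count of 0 was set to 3 reads per library for a lower bound. With 1 library per group no test across tags was run; edgeR 4.0.16 (R 4.3.3) gave TMM factors only. Tables were computed with pandas 2.3.3 and numpy 2.4.6, intervals with scipy 1.17.1 and figures with matplotlib 3.10.9, under Python 3.11.15. The size rule was also run on simulated counts of 9119 tags that held counting (Poisson) noise alone. Only tags with 100 or more expected control reads were changed, by 4-fold. The rule found 100 of 100 made higher and 100 of 100 made lower in each comparison. It called 0 of 6852, 0 of 7027 and 1 of 7068 unchanged tags at 1 h, 3 h and 24 h. The simulation held no further difference between libraries and no change near 2-fold or 50 reads, so it gives no error rate for the calls reported here. Alternatives were other scalings, folds, read limits, pseudocounts, lengths and reference libraries, and 1 added after seeing the data (without tags 1 substitution from a more read member).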

Additional observations from a re-analysis of the deposited data

How the results depend on the processing

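No paired analysis was possible because there is 1 library per group, and no library could be left out for the same reason. Of 133 values recomputed under other settings, 75 were close to the reported value and 58 moved; the cause was not tested unless the setting itself tests fewer tags. Members higher and lower than the control numbered 2 and 8 at 1 h, 13 and 14 at 3 h, and 40 and 13 at 24 h. With TMM factors, 5 were lower at 1 h and 9 at 3 h; scaled to reads of 16 and 17 nt, 20 were lower at 24 h. At 1.5-fold, 7 were higher and 28 lower at 1 h, 22 and 31 at 3 h, and 28 lower at 24 h. At 3-fold, 1 was higher and 3 lower at 1 h, 6 and 7 at 3 h, and 5 lower at 24 h. With a limit of 100 reads, the counts were 1 and 5, 8 and 9, and 21 and 8 at the 3 times. A pseudocount of 0.1 RPM gave 15 lower at 1 h and 22 at 3 h, and one of 10 RPM gave 0 and 0, 5 and 0, and 12 and 2. Shares of all tags were not recomputed at these scalings, folds, read limits and pseudocounts. These counts therefore do not carry the contrast of members with all tags. Tags of 16 nt alone gave 0 and 4, 6 and 5, and 19 and 6, and tags of 17 nt alone gave 4 lower at 1 h, 7 and 9 at 3 h, and 21 and 7 at 24 h. Against the 1 h library, 1 was lower at 3 h and 4 at 24 h. Without tags 1 substitution from a more read member, chosen after seeing the data, the counts were 2 and 8, 10 and 14, and 37 and 13.

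Members almost only at 24 h numbered 25 at a limit of 80% and 7 at 95%, beside 16, and 1 member was almost only in the control at 80%. The members alone held 0.791, 0.837, 0.927 and 1.02% of the reads of the 4 libraries in order of time. As a share of reads of 18 to 25 nt, tags of 16 and 17 nt were 1.20, 1.17, 1.27 and 1.45%, with 1 h below the control, and without tags that had 1 read they were 0.964, 0.979, 1.08 and 1.21% of all reads. Direct matches to the miRNA table rose from 31 to 48 with at most 1 mismatch. A limit of 20 reads gave 605 members and one of 100 reads gave 133, beside 253. Depth limits the tags with few control reads, whose ratios at 24 h have intervals that span more than an order of magnitude.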
